A study of Mus musculus with 6 samples.

Results

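C-type lectin receptors are surface proteins by which myeloid cells read sugars and lipids on microbes and dying cells. The 10 genes described here, Clec7a, Clec4e, Clec4d, Clec4n, Clec5a, Clec12a, Clec4a1, Clec4a2, Clec4a3 and Clec10a, were taken by name as members of this receptor family, out of 55401 genes in the deposited table, and each was found under a single name match and passed the filter on low counts. RNA was sequenced from bone marrow-derived macrophages (BMDM), cells grown from mouse bone marrow and induced with M-CSF, a growth factor that drives macrophage formation. There were 3 libraries with the genotype Lamtor5 knockdown and 3 WT libraries, and both groups had the same M-CSF induction. Lamtor5 (HBXIP) encodes a subunit of Ragulator, a complex on the lysosome surface. The study's design text names the mouse HBXIPΔLysM, and LysM is the myeloid lysozyme gene, whose promoter is used to drive Cre in myeloid cells. By that name the loss would be tied to that promoter, which was not tested here. The loss of Lamtor5 RNA was partial in these cultures, as given below. The labels used here give no age and do not say if replicates are separate animals or cultures. The p-values therefore reflect library-to-library spread alone, part or all of which may be technical.

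The receptors signal in opposite ways. The activating ones carry a tyrosine motif in their own tail (Dectin-1, encoded by Clec7a) or borrow one from an adaptor: FcRγ (Fcer1g) for Mincle (Clec4e), MCL (Clec4d) and Dectin-2 (Clec4n), DAP12 (Tyrobp) and DAP10 (Hcst) for MDL-1 (Clec5a). The kinase Syk then acts through the adaptor CARD9 on NF-kB. The inhibitory receptors MICL (Clec12a) and DCIR (Clec4a2) carry an ITIM, a tail motif that recruits the phosphatases SHP-1 (Ptpn6) and SHP-2 (Ptpn11). Clec4a1 and Clec4a3 are close relatives of Clec4a2 in the mouse that lack this motif; they are counted with the inhibitory receptors below by family, not by function. Clec10a encodes a galactose-type lectin of macrophages and dendritic cells that takes up its ligands.

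The libraries held 26.0 to 27.2 M (1e6) read pairs in the knockdown and 27.7 to 28.0 M in WT. The targeted gene was measured first: Lamtor5 had 25.5, 27.1 and 24.8 FPKM (fragments per kilobase and M fragments, as the authors computed it) in the knockdown, against 55.9, 54.5 and 56.2 FPKM in WT. Every knockdown library lay below every WT library, with p = 0.1 in a two-sided exact permutation test, as low as this design allows, and the knockdown mean was 46.5% of the WT mean. Of 9 macrophage markers, 6 fell and 1, the lysosomal marker Cd68, rose in edgeR, where 6.46% of all 18164 genes fell and 4.87% rose. Without Lyz2, the marker sum was 1762 to 1927 FPKM in the knockdown group and 1805 to 2019 FPKM in WT, and most of it was Cd68 (mean 1415 FPKM in the knockdown group and 946 FPKM in WT). The other 7 markers summed to 356 to 489 FPKM in the knockdown group and 834 to 1081 FPKM in WT, with no overlap. Csf1r was the largest of them (mean 191 FPKM in the knockdown group and 445 FPKM in WT). Mertk, also among the 7, went the other way, with 7.29, 5.78 and 8.98 FPKM in the knockdown, against 5.09, 3.33 and 1.87 FPKM in WT. It did not pass (edgeR adjusted p = 0.0922). The part of these marker differences in the lectin results was not tested. In bulk RNA, fewer cells of a type and less RNA per cell cannot be told apart. Lyz2 itself, the lysozyme gene whose promoter is LysM, was lower in every knockdown library than in any WT library, and lowest by far in knockdown replicate 3. It had 11356, 10650 and 73.6 FPKM in knockdown replicates 1 to 3, against 29379, 24743 and 22454 FPKM in WT, and did not pass (edgeR adjusted p = 0.408). Without knockdown replicate 3, edgeR called 781 of 18831 genes, in place of 2058 of 18164.

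Of the 10 lectin genes, 6 passed an adjusted p of 0.05 in edgeR, 2 higher and 4 lower in the knockdown. Of all 18164 genes tested, 11.3% passed, 4.87% higher and 6.46% lower. The activating receptor genes Clec7a and Clec4e were the 2 that rose. The 4 that fell were Clec12a, Clec4a2, Clec4a3 and, by a small amount, the activating receptor gene Clec5a. In 7 of the 10 genes the FPKM of the groups did not overlap, 2 higher and 5 lower, where 37.6% of all tested genes did not overlap (16.3% higher, 21.3% lower). Without knockdown replicate 3, Clec7a, Clec4e, Clec12a and Clec4a2 passed and Clec4a3 and Clec5a did not. No call, among the lectins or elsewhere, was left in edgeR without WT replicate 2, where 0 of 18979 genes passed the adjusted threshold (smallest adjusted p = 0.0616), although 4065 (21.4%) had an unadjusted p under 0.05, 7 of the 10 lectins among them. Without that library DESeq2 called 6 lectin genes (Clec4e, Clec7a, Clec12a, Clec4a1, Clec4a2 and Clec4a3), beside 2247 of all 27452 genes in that fit. Limma without that library called 0 lectins and 0 genes in all. Again 7 of the 10 lectins were at an unadjusted p under 0.05 in limma, beside 26.0% of the 11487 genes in that fit.

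**Figure D1:**
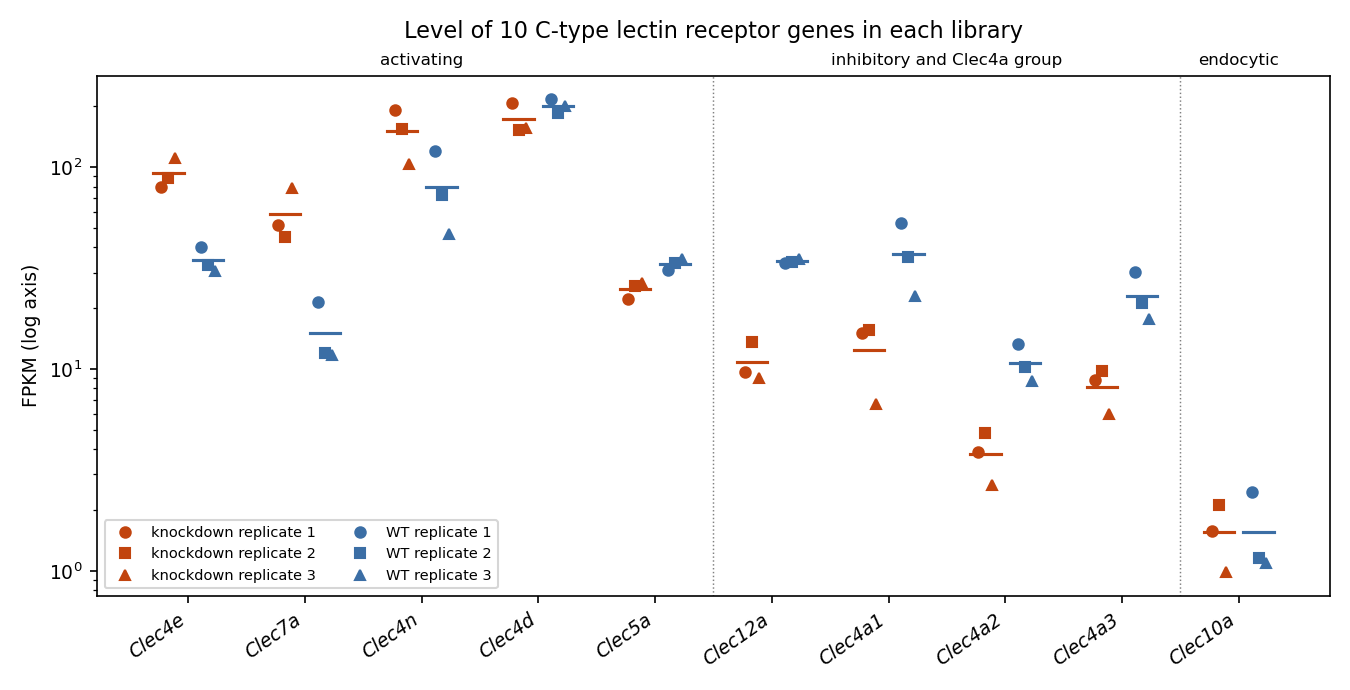
FPKM (log axis) of the 10 lectin genes in each library, knockdown in orange at the left and WT in blue at the right of each pair; points are libraries, shaped by replicate number, and short lines are group means. The knockdown libraries lie above all WT libraries for Clec4e (80.0 FPKM or more) and Clec7a (44.9 FPKM or more), and below all of them for Clec12a (13.6 FPKM or less) and the Clec4a genes.

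On the mouse genome 9 of the genes lie on chromosome 6, and Clec10a lies on chromosome 11. Neighbouring lectin genes there differed in response, and the sequences before their starts are shown for the 2 pairs with the plainest contrast: Clec4e beside Clec4d, and Clec7a, at the other end of its cluster from Clec12a. Each is a stretch of 300 bases in the sense of the gene, from 250 before to 50 after the start of the gene, 5′ to 3′, from RefSeq's table for GRCm38.p6. Clec4e (minus strand, chr6:123289822-123290121), Clec4d (plus strand, chr6:123261857-123262156), Clec7a (minus strand, chr6:129472730-129473029) and Clec12a (plus strand, chr6:129349994-129350293) are given. Capitals mark matches, on either strand, to the core of the PU.1 site (GAGGAA), the C/EBP site (TTGCNNAA) or the AP-1 site (TGANTCA).
Clec4e: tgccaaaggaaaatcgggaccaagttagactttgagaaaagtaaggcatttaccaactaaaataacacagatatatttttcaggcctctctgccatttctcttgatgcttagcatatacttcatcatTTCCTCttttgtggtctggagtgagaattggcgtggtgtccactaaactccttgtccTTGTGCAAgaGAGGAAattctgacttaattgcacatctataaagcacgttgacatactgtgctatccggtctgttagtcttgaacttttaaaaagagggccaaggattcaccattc
Clec4d: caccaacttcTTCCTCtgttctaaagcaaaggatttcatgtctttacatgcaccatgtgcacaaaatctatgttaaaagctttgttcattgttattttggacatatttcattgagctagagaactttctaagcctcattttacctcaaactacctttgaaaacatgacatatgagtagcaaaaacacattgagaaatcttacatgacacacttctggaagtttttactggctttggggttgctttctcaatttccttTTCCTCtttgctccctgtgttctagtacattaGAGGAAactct
Clec7a: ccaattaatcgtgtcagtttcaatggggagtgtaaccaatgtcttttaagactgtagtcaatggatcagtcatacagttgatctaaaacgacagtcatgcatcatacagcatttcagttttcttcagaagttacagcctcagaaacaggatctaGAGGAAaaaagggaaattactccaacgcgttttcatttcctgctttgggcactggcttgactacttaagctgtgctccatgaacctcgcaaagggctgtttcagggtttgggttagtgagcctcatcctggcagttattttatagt
Clec12a: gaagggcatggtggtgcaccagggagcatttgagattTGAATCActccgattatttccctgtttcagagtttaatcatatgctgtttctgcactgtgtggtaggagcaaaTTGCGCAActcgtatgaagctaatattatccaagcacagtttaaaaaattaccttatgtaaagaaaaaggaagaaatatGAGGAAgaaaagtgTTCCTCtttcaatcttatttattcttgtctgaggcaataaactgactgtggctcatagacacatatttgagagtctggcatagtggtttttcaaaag

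PU.1 and the C/EBP proteins are transcription factors of myeloid cells. The PU.1 core was found in 6 of the 8 lectin promoters in the table (Clec4n and Clec10a were not matched there), and in 28.3% of all 32851 promoters. It stood 3 times in Clec4d, 2 times in Clec4e, Clec5a, Clec12a and Clec4a1, and 1 time in Clec7a, so it was present beside genes that rose, fell and did not pass. The C/EBP letters were found in Clec4e and Clec12a and in 10.8% of all promoters, and the AP-1 letters in Clec12a and Clec4a2 and in 7.81% of all promoters. The E-box CACGTG, read by MITF and TFE factors among others, and the NF-kB letters (GGGA, 2 bases of any kind, TTCC) were in none of the 8 windows (7.15% and 1.47% of all promoters). A match is a run of letters, and no binding was measured. The Clec12a and Clec4a2 starts in the RefSeq table lie 7553 and 16262 bases from the gene starts in the deposited table, so other starts of these genes are not covered.

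Clec7a, the gene of the beta-glucan receptor Dectin-1 (ENSMUSG00000079293, GRCm38 chromosome 6, 129461591 to 129472779, minus strand), changed most among the lectins that rose. It had 51.8, 44.9 and 78.7 FPKM in knockdown replicates 1 to 3, against 21.5, 12.0 and 11.8 FPKM in WT replicates 1 to 3. Every knockdown library lay above every WT library, and WT replicate 1 stood above the other 2 WT libraries. The mean was 58.5 ± 17.9 FPKM in the knockdown group and 15.1 ± 5.54 FPKM in WT (SD, n = 3 each), 3.88-fold higher. In edgeR the log2 difference was 2.002 (SE 0.33, adjusted p = 0.0171 by the Benjamini-Hochberg method). It was 1.72 (adjusted p = 0.0429) without knockdown replicate 3. The call was also lost without knockdown replicate 1 (2.07, adjusted p = 0.0551) and without WT replicate 3 (1.84, adjusted p = 0.0589) in edgeR.

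Clec4e, the gene of Mincle, a receptor of mycobacterial cord factor and of a nuclear protein freed by dying cells (ENSMUSG00000030142, chromosome 6, 123281789 to 123289870, minus strand), rose with less spread. It had 80.0, 88.4 and 110.8 FPKM in the knockdown, against 40.2, 32.9 and 30.5 FPKM in WT. Every knockdown library lay above every WT library, and the highest library was 1.38-fold above the lowest in the knockdown and 1.32-fold in WT. The mean was 93.1 ± 15.9 FPKM in the knockdown group and 34.5 ± 5.07 FPKM in WT (SD, n = 3 each), 2.70-fold higher, with a log2 fold change of 1.48 in edgeR (SE 0.17, adjusted p = 0.0103). Clec4e kept its call in 14 of 16 alternative analyses, and both losses were without WT replicate 2 (edgeR adjusted p = 0.0616, limma adjusted p = 0.0585).

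Clec4d encodes MCL, which pairs with Mincle and binds the same cord factor; the gene lies next to Clec4e (ENSMUSG00000030144, chromosome 6, 123262111 to 123275265, plus strand). It did not pass. It had 208.4, 153.3 and 155.9 FPKM in the knockdown, against 216.4, 185.3 and 199.6 FPKM in WT, and the groups overlapped through knockdown replicate 1. The log2 fold change was -0.17 (SE 0.15, edgeR adjusted p = 0.517) and lay between -0.34 and -0.06 in all 16 alternatives. Within each library the ratio of Clec4e to Clec4d FPKM was 0.384, 0.577 and 0.711 in the knockdown, against 0.186, 0.177 and 0.153 in WT, so the partner genes stood nearer to equal levels in each knockdown library than in any WT library.

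Clec4n, the gene of the fungal mannan receptor Dectin-2 (ENSMUSG00000023349, chromosome 6, 123229843 to 123247021, plus strand), varied most within the groups among the activating receptors. It had 191.9, 155.0 and 104.1 FPKM in the knockdown, against 120.0, 72.4 and 46.6 FPKM in WT, and knockdown replicate 3 lay below WT replicate 1. The highest WT library was 2.58-fold above the lowest. Its log2 fold change was 0.96 (SE 0.38, edgeR adjusted p = 0.142), which did not pass. It passed in DESeq2 (adjusted p = 0.0299) and in edgeR without WT replicate 1 (1.40, adjusted p = 0.0428).

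Clec5a, the gene of MDL-1, which is known as a receptor for dengue virus (ENSMUSG00000029915, chromosome 6, 40574894 to 40585821, minus strand), was the activating receptor gene that fell. It had 22.1, 25.8 and 26.5 FPKM in the knockdown, against 30.7, 33.3 and 34.99 FPKM in WT. The groups did not overlap, but the gap between them was small. The mean was 75.1% of the WT mean, with a log2 fold change of -0.36 (SE 0.09, edgeR adjusted p = 0.0451). This call was close to the threshold: it was lost in each of the 6 analyses that left out a library (adjusted p 0.0513 to 0.145 in edgeR) and kept in 5 of 16 alternatives in all.

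Clec12a, the gene of the inhibitory receptor MICL, which binds uric acid crystals from dead cells (ENSMUSG00000053063, chromosome 6, 129342691 to 129364416, plus strand), had the smallest p among the lectins. It had 9.70, 13.6 and 9.01 FPKM in the knockdown, against 33.7, 34.0 and 34.97 FPKM in WT. The WT libraries were nearly level, with the highest 1.04-fold above the lowest. The mean was 10.8 ± 2.47 FPKM in the knockdown group and 34.2 ± 0.681 FPKM in WT (SD, n = 3 each), that is 31.5% of the WT level, and the log2 fold change was -1.62 (SE 0.14, edgeR adjusted p = 0.00963). As with Clec4e, it was called in 14 of 16 alternatives, and not without WT replicate 2 in edgeR (adjusted p = 0.0616) or limma (adjusted p = 0.0585).

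The 3 Clec4a genes of the mouse DCIR family averaged 33.4% to 35.4% of their WT level, and 2 of them passed. Clec4a2, the gene of the ITIM receptor DCIR (ENSMUSG00000030148, chromosome 6, 123106428 to 123143999, plus strand), had 3.88, 4.83 and 2.67 FPKM in the knockdown, against 13.3, 10.2 and 8.75 FPKM in WT. The groups did not overlap, and the log2 fold change was -1.46 (SE 0.25, edgeR adjusted p = 0.0183). Clec4a3 (ENSMUSG00000043832, chromosome 6, 122952515 to 122969875, plus strand) had 8.80, 9.72 and 5.98 FPKM in the knockdown, against 30.2, 21.3 and 17.6 FPKM in WT, with a log2 fold change of -1.45 (SE 0.26, edgeR adjusted p = 0.0204). Its groups did not overlap either. Without knockdown replicate 3, Clec4a3 had a log2 fold change of -1.28 (edgeR adjusted p = 0.0554) and Clec4a2 of -1.27 (adjusted p = 0.0424), so that Clec4a2 alone passed. Without knockdown replicate 1 neither passed in edgeR (adjusted p = 0.0642 for Clec4a2 and 0.0651 for Clec4a3).

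Clec4a1, the remaining relative (ENSMUSG00000049037, chromosome 6, 122921848 to 122934619, plus strand), did not pass. It had 15.0, 15.7 and 6.70 FPKM in the knockdown, against 53.0, 35.9 and 23.0 FPKM in WT. The groups did not overlap, yet the highest library was 2.34-fold above the lowest in the knockdown and 2.30-fold in WT. The log2 fold change of -1.54 was as large as that of its relatives, with a larger error (SE 0.41, edgeR adjusted p = 0.0558). It passed in 4 of 16 alternatives, DESeq2 with all libraries among them (adjusted p = 0.000271). In WT, replicate 1 was the highest library and replicate 3 the lowest for Clec4a1, Clec4a2 and Clec4a3 alike, and in the knockdown replicate 3 was the lowest for all 3 genes.

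Clec10a (ENSMUSG00000000318, chromosome 11, 70156197 to 70170834, plus strand) was the lowest lectin of the 10 in both groups. It had 1.57, 2.11 and 0.985 FPKM in the knockdown, against 2.44, 1.15 and 1.10 FPKM in WT. The groups overlapped, with a log2 fold change of 0.02 (SE 0.40, edgeR adjusted p = 0.980), whose sign was kept in 10 of 16 alternatives. With this error a change of moderate size was not detectable.

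**Figure D2:**
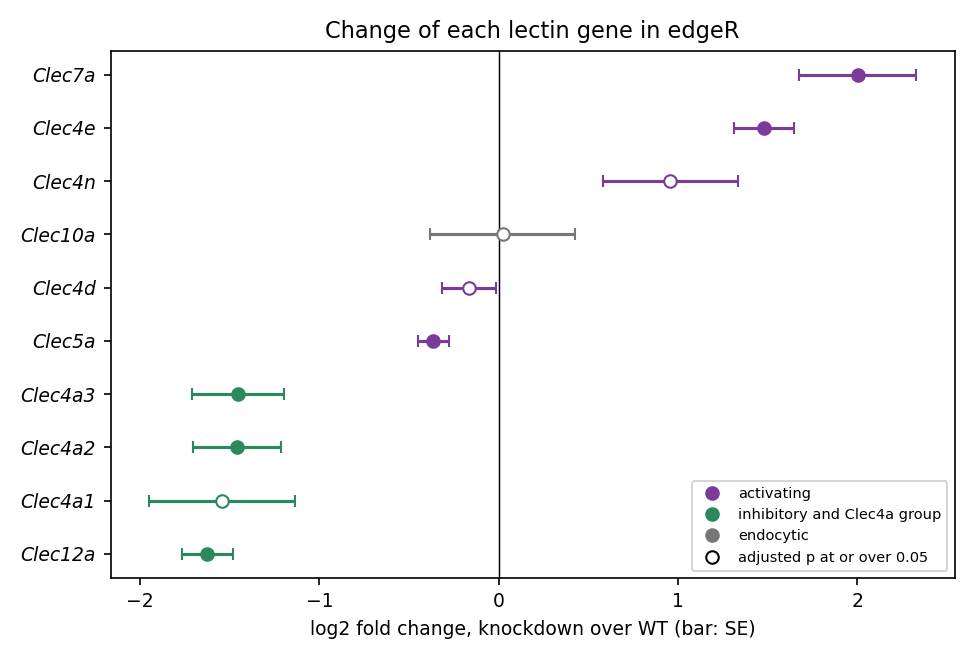
Log2 fold change of each lectin gene, knockdown over WT, in edgeR; bars are standard errors, filled points have an adjusted p under 0.05, and colours give the receptor class. Clec7a (2.002) and Clec4e (1.48) lie above 0, and the 4 genes of the inhibitory class lie between -1.62 and -1.45.

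The activating and inhibitory receptors were then compared as sets, as a description, since genes of a set are not replicates. Of 5 activating genes 2 rose and 1 fell, and of 4 genes of the inhibitory class 3 fell and 0 rose. Shares of all tested genes were 4.87% higher and 6.46% lower. Clec4a1 was at adjusted p = 0.0558 in edgeR. All 4 genes of the inhibitory class were lower at an unadjusted p under 0.05, beside 15.7% of all tested genes. The activating gene Clec4n was also higher at that level (edgeR unadjusted p = 0.0386), beside 14.5% of all tested genes. The median log2 fold change was 0.96 for the activating set and -1.50 for the inhibitory set, beside 0.02 for all tested genes. The FPKM of the 5 activating genes summed to 554, 467 and 476 in the knockdown, against 429, 336 and 323 in WT. For the 4 genes of the inhibitory class the sum was 37.4, 43.8 and 24.3 FPKM in the knockdown, against 130.1, 101.4 and 84.3 FPKM in WT. Clec4d, the most abundant of them, and Clec5a had lower means in the knockdown, so the higher activating sum came from Clec4n, Clec4e and Clec7a. The activating median was 0.68 without WT replicate 3 and 1.40 without WT replicate 1, since Clec4n is the median gene.

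The ratio of these sums was 14.8, 10.7 and 19.6 in the knockdown, against 3.30, 3.31 and 3.83 in WT. It was nearly level in WT and varied in the knockdown, where replicate 3 had the highest ratio. As a difference of mean log2 FPKM, which gives every gene the same weight, the activating set stood 3.36 ± 0.489 above the inhibitory set in the knockdown and 1.04 ± 0.0810 above it in WT (SD, n = 3 each). Clec7a and Clec12a, at the ends of 1 cluster, had the highest and lowest log2 fold change of the 10 genes (2.002 and -1.62). A ratio of these 2 genes therefore separates the groups by their choice, and is given as a description. The ratio of Clec7a to Clec12a FPKM was 5.34, 3.30 and 8.74 in the knockdown, against 0.638, 0.353 and 0.336 in WT. Dectin-1 transcripts outnumbered MICL transcripts per length in each knockdown library and were fewer in each WT library.

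**Figure D3:**
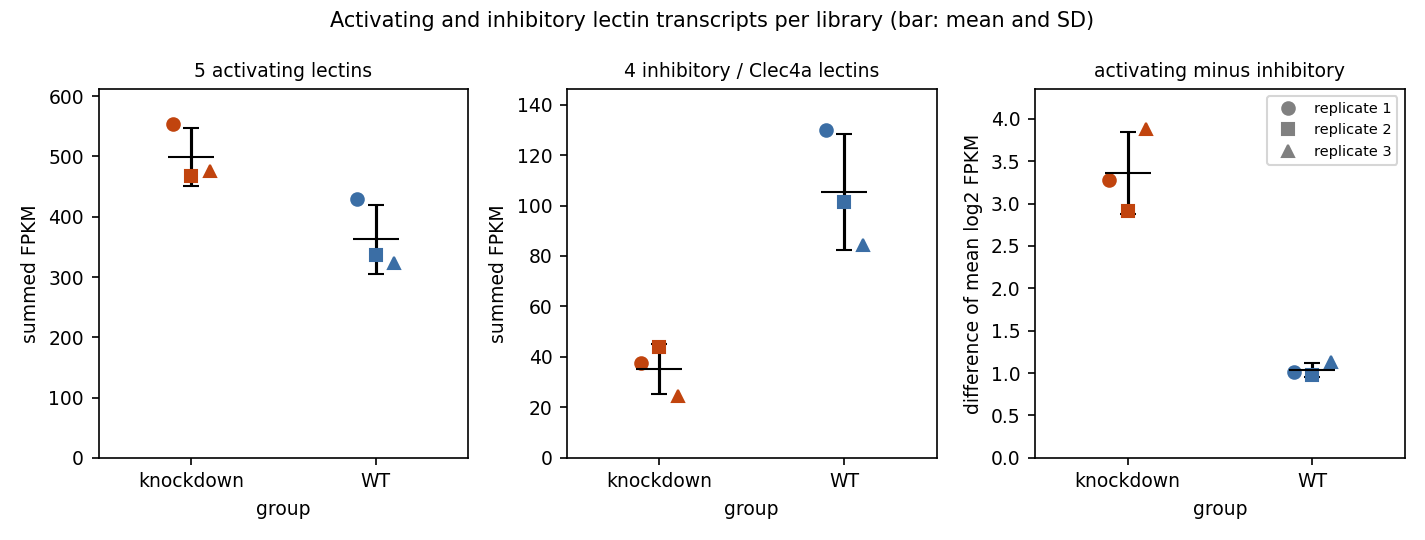
Summed FPKM of the 5 activating genes (left), summed FPKM of the 4 genes of the inhibitory class (middle) and the difference of their mean log2 FPKM (right), knockdown left of WT in each panel; points are libraries, horizontal bars are means and whiskers are SD. The inhibitory sum is 24.3 to 43.8 in the knockdown libraries and 84.3 to 130.1 in the WT libraries.

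The order of the levels also differed between the groups. In the knockdown the mean FPKM fell in the order Clec4d (172.5), Clec4n (150.3), Clec4e (93.1), Clec7a (58.5), Clec5a (24.8), Clec4a1 (12.5), Clec12a (10.8), Clec4a3 (8.17), Clec4a2 (3.79) and Clec10a (1.56). The libraries of Clec4d and Clec4n, Clec4n and Clec4e, Clec4a1 and Clec12a, and Clec12a and Clec4a3 overlapped, so those neighbours were not told apart. In WT the order was Clec4d (200.4), Clec4n (79.7), Clec4a1 (37.3), Clec4e (34.5), Clec12a (34.2), Clec5a (33.0), Clec4a3 (23.0), Clec7a (15.1), Clec4a2 (10.7) and Clec10a (1.56). There, neighbours from Clec4a1 to Clec5a were not told apart, and neither were Clec4n and Clec4a1, Clec4a3 and Clec7a, or Clec7a and Clec4a2. Clec7a thus ranked 4 in the knockdown and 8 in WT, and all 5 activating genes lay above all 4 of the inhibitory class in the knockdown means only.

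The opposite responses occurred within short stretches of chromosome 6. The Clec4 cluster, from Clec4a1 to Clec4e, spans 368 kb of the deposited coordinates and holds 9 tested genes. Its Clec4a end held the lower genes, and Clec4e the gene that rose. Within the Clec4a end, between Clec4a3 and Clec4a2, Clec4a4 (0.228 FPKM in the knockdown group and 0.210 FPKM in WT) and Clec4b1 (0.0726 FPKM in the knockdown group and 0.235 FPKM in WT) were near 0 in both groups and did not pass. From Clec12a to Clec7a the distance is 130 kb with 6 tested genes. The genes between, Clec1b (3.02 FPKM in the knockdown group and 1.62 FPKM in WT; log2 fold change 0.93, edgeR adjusted p = 0.167), Clec9a (0.788 FPKM in the knockdown group and 0.273 FPKM in WT; 1.56, adjusted p = 0.0561) and Clec1a, did not pass. Clec1b and Clec9a overlap in the deposited coordinates, so their counts are uncertain. Shared sequence was limited: of all stretches of 100 bases in the GENCODE M21 transcripts of each of the 10 genes, 2.14% of those of Clec4a2 were also found in Clec4a4 and 2.64% of those of Clec10a in its paralog Mgl2, and none of those of the other 8 genes were found elsewhere.

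**Figure D4:**
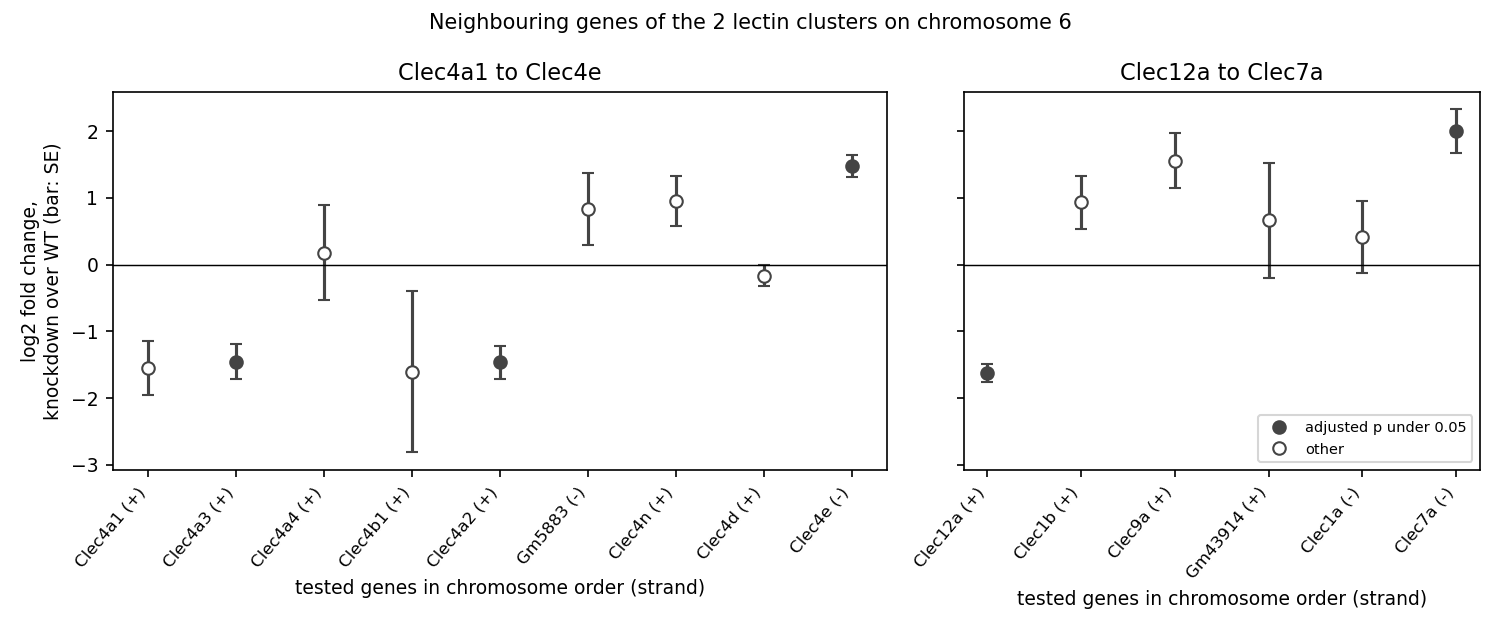
Log2 fold change (knockdown over WT, bars SE) of the tested genes in chromosome order in the Clec4 cluster (left) and from Clec12a to Clec7a (right), with the strand after each name; filled points have an adjusted p under 0.05. Each stretch has called genes on both sides of 0: Clec4a3 (-1.45) and Clec4a2 (-1.46) against Clec4e (1.48), and Clec12a (-1.62) against Clec7a (2.002).

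The adaptors that the activating receptors need were abundant. Fcer1g had 881 ± 64.0 FPKM in the knockdown group and 836 ± 33.0 FPKM in WT, and Tyrobp 1112 ± 86.9 FPKM in the knockdown group and 1021 ± 98.1 FPKM in WT (SD, n = 3 each); neither passed in edgeR (adjusted p = 0.394 and 0.343). Hcst, the gene of DAP10, was far lower and rose: it had 13.8, 10.7 and 12.7 FPKM in the knockdown, against 6.85, 4.62 and 5.40 FPKM in WT (log2 fold change 1.19, SE 0.21, edgeR adjusted p = 0.0207). The call for Hcst was also lost without knockdown replicate 1, without knockdown replicate 3 and without WT replicate 3 (edgeR adjusted p 0.0617 to 0.0701).

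Without knockdown replicate 3 none of the 3 adaptor genes passed in edgeR, with 1 at an unadjusted p under 0.05 (24.2% of all genes in that fit).

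Of 30 genes from Syk and the Src-family kinases to CARD9, NF-kB and NFAT, all tested, 3 rose and 7 fell in edgeR. Among all 18164 genes 4.87% rose and 6.46% fell. Without knockdown replicate 3 the counts were 2 and 3, beside 781 of all 18831 genes in both directions together. The list's median log2 fold change was -0.20. Src, the gene of the kinase that gives the family its name, rose to 6.32 ± 0.608 FPKM in the knockdown, against 2.57 ± 0.193 FPKM in WT (log2 fold change 1.34, edgeR adjusted p = 0.00963), and the exchange factor gene Vav2 rose by 0.92. Nfatc2, a calcium-driven transcription factor gene, fell by 0.72 and Nfkb1, an NF-kB subunit gene, fell by 0.63 on the log2 scale. Card9, chosen after its values were seen because it is the adaptor common to these receptors, had 22.5, 23.0 and 19.3 FPKM in the knockdown, against 37.0, 33.2 and 32.9 FPKM in WT (-0.62, SE 0.10, adjusted p = 0.0164). Syk, likewise, had 61.5 ± 0.882 FPKM in the knockdown group and 55.9 ± 5.91 FPKM in WT and did not pass (adjusted p = 0.286 in edgeR).

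Of the 4 phosphatase genes that inhibitory receptors recruit, 1 fell, beside 6.46% of all 18164 genes. Ptpn6, the gene of SHP-1, had 78.5, 76.4 and 70.8 FPKM in the knockdown, against 125.4, 126.8 and 120.1 FPKM in WT (log2 fold change -0.67, SE 0.08, edgeR adjusted p = 0.0103). It thus fell together with Clec12a and Clec4a2, whose products can recruit it. Ptpn11, the gene of SHP-2, Inpp5d and Inppl1 did not pass, with log2 fold changes of -0.02, -0.06 and -0.49 (edgeR adjusted p = 0.889, 0.650 and 0.0884).

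Of 16 cytokine and early response genes known to follow lectin receptor stimulation, 12 were tested, 3 fell and none rose in edgeR, and the list's median was -1.15 (log2 fold change). At an unadjusted p under 0.05, 8 were lower and 0 higher, beside 15.7% lower and 14.5% higher among all 18164 genes. At the adjusted threshold these shares of all genes were 6.46% and 4.87%. DESeq2 called 7 lower of 15 tested and limma 1 of 8, none of them higher, and edgeR without knockdown replicate 3 called 1 lower of 14. Over all genes and both directions these fits called 3635 of 28038, 1974 of 11516 and 781 of 18831. No stimulus was added in this study beyond M-CSF. Tnf had 26.1, 28.6 and 18.7 FPKM in the knockdown, against 51.6, 69.6 and 76.9 FPKM in WT (-1.38, SE 0.19, edgeR adjusted p = 0.0128). Egr3 was low and varied in WT, with 0.271, 0.382 and 0.150 FPKM in the knockdown, against 0.710, 1.25 and 2.36 FPKM in WT (-2.36, edgeR adjusted p = 0.0325). Of the edgeR fits that omit 1 library, its call was kept only without WT replicate 1 (adjusted p = 0.0217). It was also lost in edgeR with the replicate block (adjusted p = 0.0985) and without a filter (adjusted p = 0.0583). Il10, the anti-inflammatory cytokine gene, had 8, 0 and 0 estimated counts in the knockdown, against 65, 70 and 91 in WT (-4.65, SE 1.15, edgeR adjusted p = 0.0470). Il10 was near 0 (mean 0.0199 FPKM in the knockdown group and 0.613 FPKM in WT), and its call was close to the threshold. Ptgs2 had a log2 fold change of -1.64 and did not pass (adjusted p = 0.0625). Il6, Il23a, Csf2 and Csf3 were under the filter on low counts.

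Of 10 genes of transcription factors known to act on myeloid genes, 5 fell and none rose in edgeR, and the list's median was -0.26 (log2 fold change). At an unadjusted p under 0.05, in DESeq2 and in limma (9 tested), 5 were lower and 0 higher, and without knockdown replicate 3 edgeR called 1 lower. Among all 18164 genes, edgeR called 6.46% lower and 4.87% higher, and 15.7% were lower at an unadjusted p under 0.05. In both directions together, DESeq2 called 3635 of 28038 genes, limma 1974 of 11516, and edgeR 781 of 18831 without knockdown replicate 3. Klf4 had 7.71 ± 1.21 FPKM in the knockdown group and 16.1 ± 1.39 FPKM in WT (-1.01, edgeR adjusted p = 0.0114), and Irf5 fell by 0.64. Spi1, the gene of PU.1, had 74.0 ± 7.08 FPKM in the knockdown group and 99.3 ± 1.98 FPKM in WT (SD, n = 3 each; -0.38, SE 0.08, edgeR adjusted p = 0.0281). Hif1a fell by 0.40 on the log2 scale, and the fifth gene to fall, Cebpd, by 1.21 (edgeR adjusted p = 0.0306). Among edgeR fits that omit 1 library, the Cebpd call was kept only without knockdown replicate 2 (adjusted p = 0.0315). The call was also lost in edgeR without a filter (adjusted p = 0.0555). Cebpd was among the 3 genes whose pattern over the libraries was most like those of Clec4a2 and Clec4a3, as given next.

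Likeness was measured as the root mean square difference of log2 levels over the 6 libraries, each gene centred on its own mean, among 11485 other genes with a mean of at least 1 FPKM. The genes most like Clec4e were Tmem150a (0.034), Rilpl2 (0.068) and Ly75 (0.084). Those most like Clec7a were 4930512J16Rik (0.090), Gm32633 (0.097) and Best1 (0.22), and those most like Clec12a were Nectin1 (0.045), Tmem267 (0.13) and Gm11699 (0.16). Clec4a2 and Clec4a3 were each other's nearest gene (0.076), followed for both by Cebpd (0.13 and 0.17), and then by Fxyd2 (0.15) for Clec4a2 and Ms4a6c (0.17) for Clec4a3. Clec5a was nearest to Mtmr2 (0.032), Prpf38a (0.037) and Ap1ar (0.041), 3 genes that did not pass themselves. With 6 libraries in 2 groups, a like pattern is mostly a like difference between the groups.

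Among 41 other C-type lectin and lectin-like genes, 25 were tested, 3 rose and 2 fell, and the list's median was 0.34 (log2 fold change). Over all 18164 genes 4.87% rose and 6.46% fell. Without knockdown replicate 3, 3 of the list rose and 1 fell, beside 781 of all 18831 genes in both directions together. Ly75, the gene of the endocytic receptor DEC-205, had 8.97, 8.83 and 11.7 FPKM in the knockdown, against 4.82, 3.71 and 3.43 FPKM in WT (1.35, SE 0.18, edgeR adjusted p = 0.0128). Cd93 (0.48, edgeR adjusted p = 0.0261) and Thbd (0.63, edgeR adjusted p = 0.0488), genes of related surface proteins with a lectin-like domain, rose as well. Thbd was close to the threshold and low (mean 3.69 FPKM in the knockdown group and 2.47 FPKM in WT). The Cd93 call was also lost in edgeR without knockdown replicate 1 (adjusted p = 0.0637) and without WT replicate 3 (adjusted p = 0.0780). Cd72, which encodes another ITIM receptor, had 14.3, 19.4 and 9.90 FPKM in the knockdown, against 39.8, 43.7 and 51.6 FPKM in WT (-1.59, SE 0.22, edgeR adjusted p = 0.0133). Cd302 fell by 0.69 (edgeR adjusted p = 0.0284). Its call was lost in edgeR when any knockdown library was left out (adjusted p 0.0725 to 0.0876). The same held without WT replicate 2 (adjusted p = 0.102) and with the replicate block (adjusted p = 0.0617). Clec9a, the remaining gene of the 6 with the smallest p, had an adjusted p of 0.0561. Csf3 aside, the genes with 0 counts in every library of these lists were Clec4f, Cd209b, Cd209d, Cd209f, Cd209g and Asgr1, lectins of other cells and tissues.

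**Figure D5:**
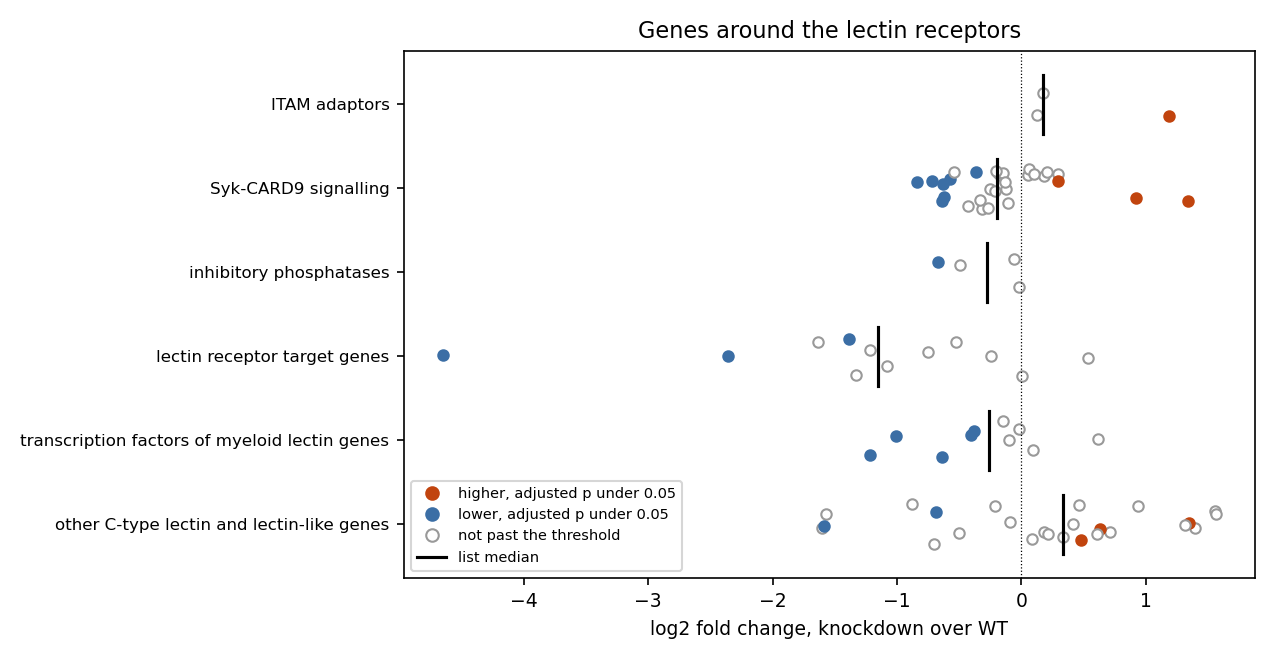
Log2 fold change, knockdown over WT, of the tested genes in the lists around the lectin receptors; orange points rose and blue points fell at an adjusted p under 0.05 in edgeR, open points did not pass, and black lines are list medians. The target gene list has the lowest median (-1.15), and the only 2 lists with called genes on both sides of 0 are Syk-CARD9 signalling (3 higher, 7 lower) and the other lectins (3 higher, 2 lower).

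Several lectins are also expressed by monocytes, neutrophils and dendritic cells, which marrow cultures can hold. Of 7 monocyte markers 1 fell, Ccr2 (2.33, 3.13 and 0.842 FPKM in the knockdown, against 12.4, 7.86 and 7.05 FPKM in WT; edgeR adjusted p = 0.0371). Vcan had 1.53, 1.01 and 0.304 FPKM in the knockdown, against 4.77, 4.07 and 2.98 FPKM in WT, and did not pass (-2.005, edgeR adjusted p = 0.0578). DESeq2, limma and edgeR without knockdown replicate 3 each called 2 monocyte markers lower, and the marker sum was 37.9 to 44.0 FPKM in the knockdown group and 43.1 to 51.6 FPKM in WT. Of 9 neutrophil markers 1 fell, Ltf (1 lower also in DESeq2 and limma), with sums of 84.2 to 134.3 FPKM in the knockdown group and 107.1 to 162.9 FPKM in WT. None of 9 dendritic cell markers passed in edgeR, with 2 higher at an unadjusted p under 0.05; DESeq2 called 2 higher and limma 0 of 2 tested, and the sums were 11.7 to 14.8 FPKM in the knockdown group and 7.86 to 10.8 FPKM in WT. Of 8 mast cell, basophil and eosinophil markers 2 rose in edgeR, 4 in DESeq2 and 3 in edgeR without knockdown replicate 3, with sums of 6.56 to 15.3 FPKM in the knockdown group and 2.17 to 4.54 FPKM in WT. None of 5 tested osteoclast markers passed in edgeR (1 lower at an unadjusted p under 0.05; DESeq2 called 1 lower and limma 0), with sums of 62.5 to 110.3 FPKM in the knockdown group and 79.5 to 97.0 FPKM in WT, and Calcr had 0 counts in every library. Beside these marker counts, edgeR called 4.87% of all 18164 genes higher and 6.46% lower, with 14.5% higher and 15.7% lower at an unadjusted p under 0.05. In both directions together, DESeq2 called 3635 of 28038 genes, limma 1974 of 11516, and edgeR 781 of 18831 without knockdown replicate 3. The part of other cell types in the lectin differences was not tested.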

How the data were processed

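Per the labels' protocols, total RNA was made into libraries with a SMARTER mRNA-Seq kit. Per the file headers, the authors trimmed adapters with cutadapt 1.9 (overlap 5, minimum length 100). The submitters' processing notes name the build GRCm38 (mm10). Aligner, counting program, strand setting and annotation: not given in the sources used here. Per the file headers, the authors deposited an estimated count and an FPKM value per gene and library. The estimated counts are whole numbers, were not rounded further, and sum to 2.95 to 3.01 per read pair kept (75.8 to 83.2 M per library), so they are not a tally of reads and no counting intervals were made.

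Counts were tested with edgeR 4.0.16 in R 4.3.3: filterByExpr (minimum count 10), TMM, quasi-likelihood test with group as the only term, Benjamini-Hochberg adjustment over 18164 genes, threshold 0.05; SE is the log2 fold change divided by the square root of F. Exact tests used scipy 1.17.1. The edgeR script was tested on simulated data. Alternatives were RLE scaling, DESeq2 1.42.0, no filter, limma 3.58.1 on log2(FPKM + 1) or log2(FPKM + 0.1), counts divided by 3, a replicate block, and fits that omit 1 library each.

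The members, gene lists and rules were chosen with earlier results of these data known. The rule named all members, up to 4 genes per list with the smallest p (6 for other lectins), and the 3 genes most like each called member; genes named as markers, neighbours, or at 0 or under the filter, and Card9 and Syk, were added after their values were seen. Promoters came from RefSeq (GRCm38.p6); 8 of 10 members matched.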

Additional observations from a re-analysis of the deposited data

How the results depend on the processing

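Of 16 alternatives, DESeq2 and limma without WT replicate 2 were chosen after seeing the data. All 16 alternatives together gave 772 values over 49 named genes. Of these, 580 kept the direction and the side of the threshold, 164 kept the direction and lost the call, and 21 gained it. The other 7 changed sign, 6 of Clec10a and 1 of Ptpn11, neither of them called in any; no called gene reversed.

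Beside 2058 genes called in all, DESeq2 called 3635, edgeR without a filter 1205, limma without a filter 791, the replicate block 728 and limma without WT replicate 2 0. Leaving out 1 library in edgeR gave 0 to 2334, with 0 without WT replicate 2, and DESeq2 without that library gave 2247. Limma without a filter called 2 lectins lower in place of 4. Leave-one-out edgeR fits called 0 to 3 lectins higher and 0 to 3 lower, and DESeq2 without WT replicate 2 called 2 higher and 4 lower. In the pathway lists 7 genes rose and 18 fell. The counts were 5 higher and 11 lower without a filter, 4 and 8 in limma without a filter, 4 and 10 with the replicate block, and 0 of both in limma without WT replicate 2. Leave-one-out fits gave 0 to 7 higher and 0 to 16 lower, and DESeq2 without WT replicate 2 gave 5 and 21. The median of the activating set was 0.68 to 1.40 in leave-one-out fits. Lamtor5 was between -1.09 and -1.04 in them, with the call lost without WT replicate 2 (edgeR adjusted p = 0.0616; limma -1.09, adjusted p = 0.0585). The cause was not tested.

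Same-numbered libraries did not deviate together (correlations 0.046, 0.036 and -0.011), so the numbers were not taken to pair libraries. With the replicate block 7 lectins were called: Clec4a1 and Clec4n were added and Clec5a was lost.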
